A study of Mus musculus with 74 samples.

Results

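The genes described here encode the SLC25 carriers, the largest family of metabolite transporters in the inner mitochondrial membrane, and the subunits named for the TIM and TOM complexes, which bring proteins made in the cytosol into mitochondria. Members are all genes whose array symbol starts with Slc25a, Timm or Tomm, and each was represented by its probe with the highest mean signal over all arrays. This gave 69 genes of the 19031 with a symbol, 46 carriers and 23 import genes. Of these, 62 were expressed, 40 carriers and 22 import genes, meaning that their mean signal exceeded the median of all array values in at least 1 condition. The carriers Slc25a21, Slc25a31, Slc25a40, Slc25a41, Slc25a43 and Slc25a48 and the import gene Timm23 were not, and they entered no test.

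Gene expression was followed in CD4+ T cells of Balb/c mice on 74 Illumina bead arrays, 1 array per condition in each of 2 experiments. Naive CD62Lhi cells of pooled spleen and lymph nodes, from mice aged 5 to 8 weeks, were activated with anti-CD3 and anti-CD28. The 4 cultures were Th1 cells (IL-12 and anti-IL-4), Th2 cells (IL-4, anti-IL-12 and anti-IFN-γ), Th1/2 hybrid cells (IL-12 and IL-4, labelled ThMix) and Th0 cells, in which IFN-γ, IL-4 and IL-12 were all blocked. Each was sampled at 3, 6, 12, 24, 35, 48, 73, 96 and 120 h. The cells at 0 h (2 arrays) served all 4 cultures, so the comparisons with 0 h share these arrays. They are labelled naive with no polarizing condition, but the same labels also list the activating antibodies, and they were taken here as naive cells before activation. Values are log2 intensities, on which 1 unit is a 2-fold difference, and p-values are from limma, adjusted over all 13776 expressed genes. As the arrays were normalized to a common distribution, a change is relative to the other transcripts of the same sample, and in these bulk samples fewer cells of a type and less RNA per cell cannot be told apart.

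Among T cell markers, Cd3d, Cd3e, Cd3g, Cd4 and Cd247 exceeded the median of all values on all 74 arrays, and Cd5 did so on 62. The summed linear intensity of these 6 markers was 34415 to 44984 at 24 to 35 h, against 85170 to 99745 at 0 h. The naive samples also held signal of other cells. The sum of 5 myeloid markers was 430 to 505 at 24 to 35 h, against 3420 to 5623 at 0 h, with Itgam never above the median of all values. The hemoglobin gene Hba-a1 was at 128 to 449 at 24 to 35 h, against 3053 to 4753 at 0 h. Among 4 markers of CD8 T and NK cells, Cd8b1 was bright on all arrays, whereas Cd8a and Ncr1 were never above the median of all values. There were 2 arrays that stood apart. Departures on them were counted for members only, so no share over all genes can be set beside the counts. On the hybrid array of experiment 1 at 12 h, 4 of the 62 members departed at least 2-fold from the mean of the other cultures of that experiment and time, and on the Th0 array of experiment 2 at 96 h 3 did, while no member did so in the other experiment.

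Carriers share a fold of 3 similar repeats and exchange solutes such as ADP and ATP, phosphate, citrate, aspartate, nucleotides and cofactors between cytosol and matrix. Precursor proteins enter mitochondria through the TOM pore of the outer membrane. From there, precursors with a cleavable presequence go to the TIM23 complex. Most carriers themselves lack such a sequence and are escorted by small TIM chaperones to the TIM22 complex. These are therefore cargo of the import genes described with them. T cell activation is known for a growth phase with increased mitochondrial mass before cells divide.

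Within hours of activation a good part of the import genes rose, while carriers moved singly and in both directions. At 24 to 35 h, 8 of 22 import genes passed as higher than at 0 h, which requires a 2-fold difference and an adjusted p under 0.05, and none was lower. Among the 40 carriers, 5 were higher and 1 was lower. Over all genes tested, 10.5% were higher and 9% were lower by the same rule. The carriers' share of higher genes lay close to this background, and their share of lower genes lay below it. The import genes' share of higher genes lay above it. The median log2 change was 0.71 for import genes, 0.06 for carriers and 0.04 for all genes tested. Import genes stood beside mitochondrial ribosomal genes (36 of 73 higher, none lower, median 0.99) and respiratory chain genes (22 of 87 higher, 3 lower, median 0.63) in this window. These medians are descriptions, and the difference between carriers and import genes was not tested. In the 2 experiments the median of the import genes was 0.67 and 0.69, and that of the carriers was 0.04 and 0.08.

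**Figure D1:**
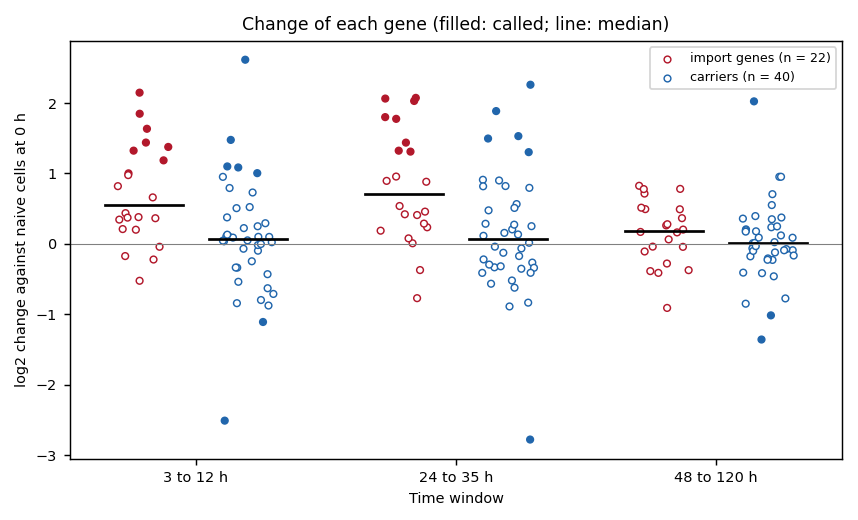
Each point is the log2 change of 1 gene, as the mean of the 4 cultures over a time window minus naive cells at 0 h, for 22 import genes (red) and 40 carriers (blue). Filled points passed the test with at least 2-fold change, and black lines are medians, 0.71 for import genes and 0.06 for carriers at 24 to 35 h.

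The order of events was also visible hour by hour. Import genes called higher numbered 5 after 3 h, 10 after 6, 12 and 24 h, 8 after 35 h and 6 after 48 h, when 1 was lower, and from 73 h onward there was none in either direction. Of all genes, 4.56% were higher after 3 h, 7.87% after 6 h, 8.6% after 12 h, 10.9% after 24 h, 10.3% after 35 h and 9.65% after 48 h, so the import genes' share lay above this background at each of these times. Their median change was 0.23 after 3 h, 0.79 after 12 h, 0.48 after 48 h and 0.04 after 120 h. The carriers' median stayed between -0.04 and 0.11 at all 9 times, with between 1 and 7 genes higher and 1 or 2 lower. Between 4.56% and 10.9% of all genes were higher and between 4.9% and 9.13% lower at these times, and the carriers' share of higher genes exceeded that of all genes from 6 to 35 h and was below it at the other times. Averaged over 3 to 12 h, 8 import genes were higher and none lower, and 5 carriers were higher and 2 lower, against 6.21% higher and 6.92% lower of all genes. At 48 to 120 h no import gene passed in either direction, while 1 carrier was higher and 2 were lower, against 7.58% and 5.86% of all genes. From 24 to 35 h to 48 to 120 h, 5 import genes fell and none rose, and 2 carriers rose and 2 fell, against 4.5% higher and 3.77% lower of all genes.

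**Figure D2:**
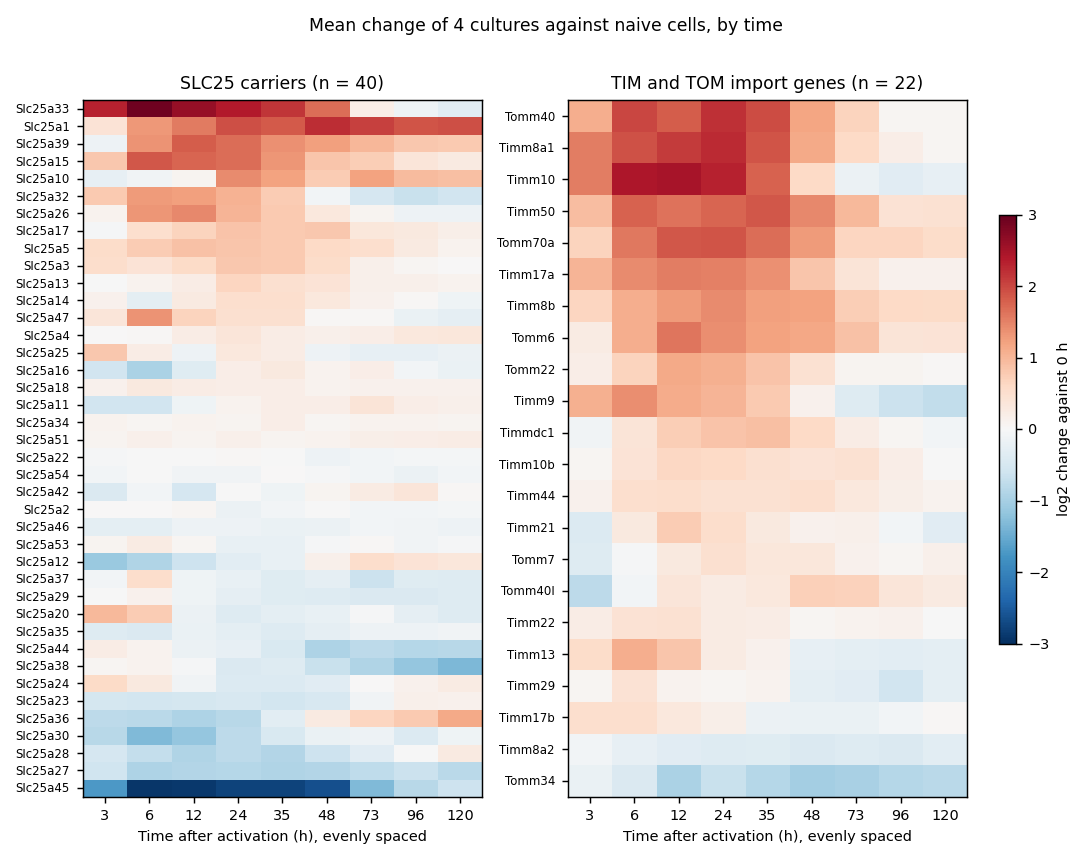
Rows are the 40 expressed carriers (left) and 22 expressed import genes (right), ordered by their change at 24 to 35 h, and columns are times. Colour is the mean log2 change of the 4 cultures against 0 h, red for higher and blue for lower. Most import rows are red up to 48 h, whereas carrier rows hold both colours.

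In the TOM complex, 3 of 6 measured genes rose at 24 to 35 h. Tomm40 encodes the pore itself. Its signal ran from 9.45 to 10.23 with a median of 9.76 on the 16 arrays of 24 to 35 h, against 8.03 and 7.44 on the naive arrays. All 16 lay above both naive arrays, a 4.21-fold rise (log2 2.07 ± 0.26, SE; adjusted p = 4.58e-09). The second expressed probe of Tomm40, which is dimmer, changed by only 0.32, so the size of this rise rests on the brighter probe. Tomm70a, the receptor that takes up carrier precursors, ran from 8.82 to 9.53 with a median of 9.12, against 7.30 and 7.42 at 0 h. It rose 3.42-fold (log2 1.77 ± 0.26, adjusted p = 1.31e-07), and again the groups did not overlap. Tomm6, a small subunit that steadies the complex, ran from 11.81 to 12.86 with a median of 12.09, against 10.92 and 10.75 at 0 h, a 2.48-fold rise (adjusted p = 2.81e-08). Tomm22, the central receptor, reached a log2 change of 0.96, just under the 2-fold limit, and Tomm7 and Tomm40l had changes of 0.41 and 0.29.

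The TIM23 complex had 2 of 5 measured genes higher. Timm50, the subunit that receives presequence proteins from the outer membrane, ran from 10.75 to 11.43 with a median of 11.10 at 24 to 35 h, against 9.44 and 9.20 at 0 h. That is a 3.48-fold rise (log2 1.80 ± 0.13, adjusted p = 6.8e-16) with no overlap. Timm17a, a subunit of the channel, ran from 12.55 to 13.02 with a median of 12.80, against 11.50 and 11.23 at 0 h, a 2.71-fold rise (adjusted p = 5.41e-16). Its paralog Timm17b did not follow, with a log2 change of 0.01. Timm44, which anchors the import motor, and Timm21 had changes of 0.46 and 0.42. Their dimmer probes gave larger changes, 0.71 and 0.69 for Timm44 and 0.63 to 0.90 for Timm21, also under 2-fold.

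Of the 9 genes of the TIM22 complex and the small TIM chaperones, 3 were higher at 24 to 35 h and 4 at 3 to 12 h. Timm8a1 ran from 12.51 to 13.55 with a median of 13.07 at 24 to 35 h, against 11.10 and 10.94 at 0 h, a 4.18-fold rise (log2 2.06 ± 0.17, adjusted p = 3.41e-14). The near-identical copy Timm8a2 was dim, with a highest value of 7.03. It had a log2 change of -0.37 at 24 to 35 h, where its 16 arrays lay below both naive ones, and its second probe gave -0.50. The part of cross-hybridization between both genes was not tested. Timm10, which with Timm9 forms the chaperone that guides carriers through the space between the membranes, ran from 10.48 to 11.64 with a median of 11.04, against 9.13 and 8.82 at 0 h. Its rise was 4.08-fold (log2 2.03 ± 0.16, adjusted p = 3.16e-14). Timm9 rose earlier and less, by 2.27-fold at 3 to 12 h (adjusted p = 1.13e-09), with a log2 change of 0.89 at 24 to 35 h. Dimmer expressed probes of Timm9 gave 1.17 and 0.67 at 24 to 35 h, so its place under 2-fold there depends on the probe. Timm8b, a partner of Timm13, ran from 12.97 to 13.39 with a median of 13.22, against 12.03 and 11.75 at 0 h, a 2.5-fold rise (adjusted p = 7.86e-19). Timm13 (0.19), Timm22, the channel for carriers (0.24), Timm29 (0.08) and Timm10b (0.54) stayed under 2-fold. Between the 2 genes that carry these names but belong to no translocase, Timmdc1, a complex I assembly factor, had a log2 change of 0.88, and Tomm34, a cytosolic cochaperone, one of -0.77.

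By the late window none of these genes passed against 0 h any longer. From 24 to 35 h to 48 to 120 h, Timm10 fell 4.2-fold, Tomm40 2.99-fold, Timm8a1 2.97-fold, Timm9 2.47-fold and Timm17a 2.1-fold, each with an adjusted p of 3.71e-17 or less. For Timm10, the 32 late arrays ran from 8.31 to 9.85 with a median of 8.80, against 10.48 to 11.64 at 24 to 35 h, so the ranges did not meet. At 48 to 120 h Timm10 differed from 0 h by only -0.04, whereas Timm50, Tomm70a, Timm8b and Tomm6 kept log2 changes of 0.82, 0.78, 0.78 and 0.71.

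**Figure D3:**
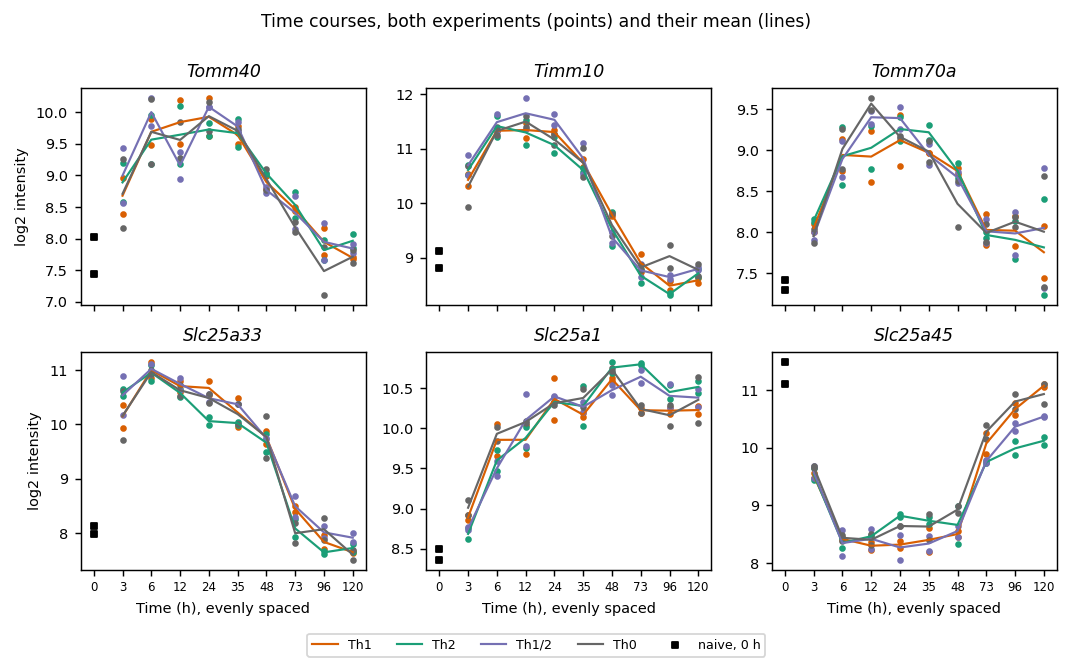
Log2 intensity against time (evenly spaced) for 3 import genes (top) and 3 carriers (bottom) in Th1, Th2, Th1/2 hybrid and Th0 cells. Points are single arrays, lines are means of both experiments, and squares are naive cells at 0 h. Tomm40, Timm10, Tomm70a and Slc25a33 peak between 6 and 24 h, Slc25a1 stays between 10.03 and 10.82 from 24 h on, and Slc25a45 falls below 9 until 48 h.

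At 24 to 35 h 5 carriers rose and 1 fell, and they moved in different ways. Slc25a33, which carries pyrimidine nucleotides into the matrix, had the largest rise among carriers. It ran from 9.96 to 10.80 with a median of 10.37 at 24 to 35 h, against 8.13 and 7.98 at 0 h, a 4.79-fold rise (log2 2.26 ± 0.17, adjusted p = 3.29e-15). Its peak came earlier, with a median of 10.97 at 6 h, and by 120 h it was at 7.68. The second pyrimidine nucleotide carrier, Slc25a36, took the opposite course. Its median was 9.11 in naive cells, 8.33 after 6 h, 8.30 after 24 h, 9.23 after 48 h and 10.29 after 120 h, and it rose 2.41-fold at 48 to 120 h against 24 to 35 h (log2 1.27 ± 0.13, adjusted p = 4.92e-12). Over the same interval Slc25a33 fell 3.76-fold (adjusted p = 3.97e-26). The 2 naive values of Slc25a36, 9.58 and 8.63, lie far apart, and its change against 0 h passed in none of the windows 3 to 12, 24 to 35 and 48 to 120 h. Its 2 dimmer probes gave smaller late rises of 0.53 and 0.44. At 24 to 35 h against 0 h they gave 0.16 and -0.19, against -0.57 for the brightest probe, so the early fall rests mainly on that probe.

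Slc25a1 exports citrate from mitochondria, the source of cytosolic acetyl-CoA for lipid synthesis. Alone among all 62 members it was called higher in every window against 0 h. It ran from 10.03 to 10.63 with a median of 10.33 at 24 to 35 h, against 8.49 and 8.36 at 0 h, a 3.69-fold rise (log2 1.89 ± 0.13, adjusted p = 1.78e-16). At 48 to 120 h it ran from 10.03 to 10.82, all 32 arrays above both naive ones, and the rise was 4.07-fold (adjusted p = 1.09e-17). Its second probe also rose, by 1.41 at 24 to 35 h. Slc25a10, the dicarboxylate carrier, came on late. At 3 to 12 h its log2 change was -0.10 ± 0.15, and at 24 to 35 h it ran from 7.99 to 9.03 with a median of 8.74, against 7.37 and 7.35 at 0 h, a 2.47-fold rise (adjusted p = 1.11e-09). Other carriers of this metabolic group, Slc25a11, Slc25a13, Slc25a18 and Slc25a22, had changes between 0.02 and 0.56, and Slc25a12 one of -0.27.

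Slc25a15, the ornithine carrier, ran from 9.25 to 10.27 with a median of 9.93 at 24 to 35 h, against 8.44 and 8.31 at 0 h, a 2.82-fold rise (adjusted p = 4.43e-10). Slc25a39, needed for glutathione import into mitochondria, ran from 9.90 to 10.73 with a median of 10.09, against 8.62 and 8.63 at 0 h, a 2.89-fold rise (adjusted p = 1.89e-11). Neither overlapped the naive arrays. At 3 h Slc25a39 was still at a median of 8.46, and at 12 h it had reached 10.36.

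The opposite pattern belonged to Slc25a45, grouped here with the amino acid carriers. It ran from 8.06 to 8.86 with a median of 8.55 at 24 to 35 h, against 11.49 and 11.11 at 0 h. This 6.86-fold fall (log2 -2.78 ± 0.13, adjusted p = 1.53e-21) was larger than the change of any other member. Its median was 9.61 after 3 h, 8.41 after 6 h, 8.60 after 48 h, 9.84 after 73 h and 10.66 after 120 h, so much of the signal returned late, a 2.68-fold rise at 48 to 120 h against 24 to 35 h (adjusted p = 1.77e-25). Slc25a38, a glycine carrier needed for heme synthesis, behaved differently again. It ran from 11.23 to 11.77 at 24 to 35 h and from 10.24 to 11.47 at 48 to 120 h, against 11.78 and 12.20 at 0 h, and the late fall was 2.02-fold (log2 -1.02 ± 0.12, adjusted p = 3.22e-09). In the same naive samples the red cell gene Hba-a1 was also high, and the part of red cells in this result was not tested.

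Besides these, 2 carriers passed against 0 h only at 3 to 12 h. Slc25a32, the folate carrier, rose 2.14-fold then (adjusted p = 2.25e-07) and fell 2.59-fold from 24 to 35 h to the late window, although its dimmer expressed probe changed by only -0.18. Slc25a30, a relative of uncoupling proteins, fell 2.16-fold (adjusted p = 5.28e-06), with values from 6.71 to 8.25, against 9.03 and 8.50 at 0 h. Slc25a26, which brings in S-adenosylmethionine, had a log2 change of 0.95 at 3 to 12 h. The brightest carrier probes, Slc25a5 for the main ADP/ATP carrier and Slc25a3 for the phosphate carrier, had changes of 0.82 and 0.80 at 24 to 35 h, under 2-fold. The dimmer expressed probe of Slc25a3 gave 1.24, so whether this gene reached 2-fold depends on the probe. The iron carriers Slc25a28 and Slc25a37 had changes of -0.83 and -0.29. The ADP/ATP carrier Slc25a4 reached at most 7.04 on any array, near background, so a change of it could hardly be seen.

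Genes that work with the import complexes were counted in the same way at 24 to 35 h. Of 19 genes for the import motor, processing and quality control, 11 were higher and none lower, led by the chaperonins Hspe1 (log2 2.44) and Hspd1 (2.40). Of 11 genes for sorting, the disulfide relay and cristae, 3 were higher, with Chchd6 (2.304) and Gfer (1.33) the largest. Of 11 other transport genes of mitochondria, 6 were higher, led by the serine carrier Sfxn1 (1.62) and the outer membrane channel Vdac1 (1.57). Of 12 regulators of mitochondrial genes, 3 were higher and 1 was lower, among them Myc (1.43) and Gabpb1 (1.31), while the coactivator gene Ppargc1b fell (-1.11).

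To describe what the members that rose share in sequence, promoters were read for 2 motifs, the E-box CACGTG bound by MYC and related factors, and the core GCGCATGC of the site of NRF1, a factor known for mitochondrial genes. Promoters are the 250 bases before and 50 bases after a transcript start in RefSeq (GRCm38.p6), available for 56 of the 69 members, and both strands were searched (the E-box reads the same on both). Among 13 members that rose at 24 to 35 h and had a promoter, 5 held an E-box (38.5%). It was found in 4 of 36 members not called then (11.1%) and in 8.09% of the 27025 genes with a promoter, counting a gene once if any of its starts had it. The NRF1 core was in none of the 13, in 2 of the 36 and in 3.05% of all genes. A match in this window is a description and not evidence of binding, and these counts were not tested. The sites are shown with 12 bases on each side where the window allows, 5′ to 3′ on the strand of the gene, with the E-box in capitals. Genes with an E-box among those that rose, and Timm9, which rose at 3 to 12 h and holds 2, were as follows.
Slc25a33 (chr4:149774258-149774287, minus strand): cccggcctccgcCACGTGacggccgcgcgc
Slc25a1 (chr16:17928441-17928469, minus strand): cgctccagacgCACGTGtctctaaactgc
Slc25a15 (chr8:22398337-22398366, minus strand): cgccctgccgcaCACGTGccgcggctccgg
Timm10 (chr2:84827037-84827066, plus strand): ccggaagtgaccCACGTGcttcttatttcg
Timm8a1, first site (chrX:134541889-134541918, minus strand): ccttcagtggacCACGTGggatgaagcaac
Timm8a1, second site (chrX:134541629-134541658, minus strand): ccgtcacccagaCACGTGaaggtcggcaag
Timm9, first site (chr12:71136716-71136745, minus strand): cctacattttccCACGTGgtaacgaatctg
Timm9, second site (chr12:71136659-71136688, minus strand): catcactgccccCACGTGttctcagctttc
In Slc25a33 the E-box starts 8 bases before the transcript start, and the 250 bases upstream (chr4:149774268-149774517, minus strand) are shown because this carrier rose most.
Slc25a33 upstream: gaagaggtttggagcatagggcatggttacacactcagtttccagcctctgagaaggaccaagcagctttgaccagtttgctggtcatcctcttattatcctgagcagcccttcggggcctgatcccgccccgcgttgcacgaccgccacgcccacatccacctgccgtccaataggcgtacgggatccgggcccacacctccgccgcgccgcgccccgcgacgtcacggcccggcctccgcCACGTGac
Among members not called at 24 to 35 h, Slc25a13, Slc25a14 and Slc25a36 also hold an E-box, and that of Slc25a36 is shown because it serves the same substrates as Slc25a33.
Slc25a36 (chr9:97111211-97111240, minus strand): cccctgggcgatCACGTGaaagaggcgtgc

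Few genes of any kind, members included, were called among the cultures before 48 h. An F-test over the differences of Th1, Th2 and hybrid cells from Th0 cells called 1 carrier and no import gene at 3 to 12 h, against 3.18% of all genes, and 3 carriers and no import gene at 24 to 35 h, against 5.39%. The carriers' share lay below that of all genes at 3 to 12 h and above it at 24 to 35 h. The early gene was Slc25a20, which brings acylcarnitines in for fatty acid oxidation and was looked at after its values were known. At 3 to 12 h it ran from 10.38 to 11.57 with a median of 11.25 in hybrid cells, against 10.70 to 12.28 with a median of 11.93 in Th0 cells. The ranges overlap because the gene also changes with time, but at matched times and experiments hybrid cells were lower in 6 of 6 pairs (log2 -0.55 ± 0.07, adjusted p = 1.16e-06). In Th2 cells the difference from Th0 was -0.35 (adjusted p = 0.00373), lower in 5 of 6 pairs. The 3 genes of the middle window were Slc25a12, Slc25a45 and Slc25a10. With experiment and time point as a block, 8 carriers and 1 import gene passed in that window, against 13.4% of all genes under the same block.

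At 48 to 120 h, 16 of 40 carriers and 4 of 22 import genes differed among the cultures, against 29.8% of all genes, the carriers' share lying above and the import genes' share below this background. With the block within time points, 22 carriers and 8 import genes passed, against 43.8% of all genes, which left the carriers' share above and the import genes' share below the background. The carriers split in both directions, whereas the import genes called against Th0 cells, Timm9, Timm17a and Tomm7 in both comparisons, Timm50 in Th2 and Timm22 in hybrid cells, were all lower. In Th2 against Th0 cells 7 carriers were higher and 8 lower, and 4 import genes were lower (25% of all genes called). In hybrid against Th0 cells 4 carriers were higher and 9 lower, and 4 import genes were lower (23.9%). The lean to lower values was not particular to import genes. Mitochondrial ribosomal genes had 3 higher and 18 lower in Th2, and 2 higher and 11 lower in hybrid against Th0 cells. Respiratory chain genes had 3 higher and 13 lower, and 4 higher and 14 lower. All genes had 1524 higher and 1926 lower, and 1391 higher and 1900 lower. In Th1 against Th0 cells 2 carriers were lower (5.83%). In Th1 against Th2 cells 5 carriers and 1 import gene were higher and 5 carriers and 1 import gene lower (20.5%). In hybrid against Th1 cells 4 carriers were higher, and 5 carriers and 1 import gene lower (15.8%). Hybrid and Th2 cells differed in 1 carrier (4.12%). The comparisons share cultures, so their counts are not independent. With the block within time points the counts were 7 for Th1 against Th0 (13.6% of all genes), 17 for hybrid against Th1 (25.9%) and 4 for hybrid against Th2 cells (10.2%). Late differences were small, and no member reached 2-fold in the mean of any pair.

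The aspartate-glutamate carrier Slc25a12, part of the shuttle that moves reducing power into mitochondria, separated Th2 cells from Th0 and Th1 cells. Its late values ran from 9.35 to 10.32 with a median of 9.72 in Th2 cells, from 9.18 to 9.64 with a median of 9.32 in hybrid cells, from 8.68 to 9.18 with a median of 9.04 in Th1 cells, and from 8.68 to 9.29 with a median of 9.11 in Th0 cells. The Th2 range lies above the Th0 and the Th1 ranges, and hybrid cells lie between. Th2 exceeded Th0 cells by 1.63-fold (log2 0.71 ± 0.10, adjusted p = 6.34e-07) in 8 of 8 matched pairs, and Th1 was below Th2 cells by 1.71-fold (adjusted p = 1.15e-07) in 8 of 8. Hybrid cells were above Th0 (0.29, adjusted p = 0.0323) and Th1 cells (0.36, adjusted p = 0.0112) and below Th2 cells (-0.41, adjusted p = 0.00978), the only member called between the hybrid and Th2. The call against Th2 was lost without Th2 replicate 2 or without hybrid replicate 1 (adjusted p = 0.347 and 0.375), and the call against Th1 without Th1 replicate 1 or without hybrid replicate 2 (adjusted p = 0.175 and 0.329). The second probe gave 0.52 for Th2 minus Th0. Slc25a12 already differed at 24 to 35 h, by 0.72 in Th2 minus Th0 (adjusted p = 0.00106) and 0.56 in hybrid minus Th0 (adjusted p = 0.0163).

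**Figure D4:**
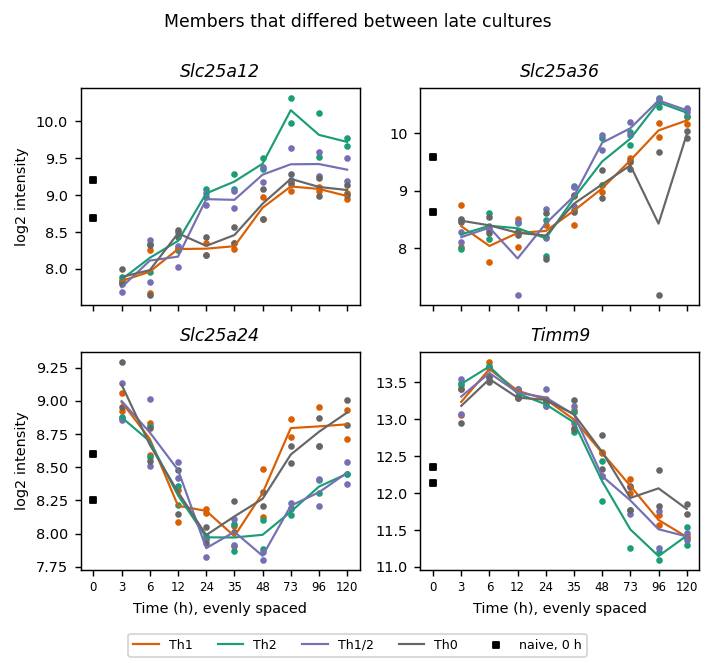
Log2 intensity against time (evenly spaced) of 3 carriers and the chaperone gene Timm9 in the 4 cultures. Points are single arrays, lines are means of both experiments, and squares are naive cells at 0 h. Slc25a12 is highest in Th2 cells from 48 h on, and the lowest late point of Slc25a36, at 7.18, is the Th0 array of experiment 2 at 96 h.

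Slc25a36 had the largest late differences over all arrays, but not without the arrays that stood apart, where Slc25a12 exceeded it. It ran from 9.71 to 10.59 with a median of 10.28 in hybrid cells and from 9.10 to 10.62 with a median of 10.16 in Th2 cells, against 7.18 to 10.05 with a median of 9.44 in Th0 cells. Hybrid cells were 1.98-fold (log2 0.98 ± 0.21, adjusted p = 0.000237) and Th2 cells 1.79-fold (0.84, adjusted p = 0.00155) above Th0, each in 8 of 8 matched pairs. Much of the size came from 1 array, the Th0 array of experiment 2 at 96 h, where this gene differed by -3.28 from the mean of the other cultures. Without both arrays that stood apart the differences were 0.67 (adjusted p = 0.000486) for hybrid and 0.53 (adjusted p = 0.00606) for Th2 minus Th0, while Slc25a12 had 0.74 for Th2 minus Th0. In addition, without all Th0 arrays of experiment 2 the Th2 difference was 0.47 and missed the threshold (adjusted p = 0.0985). The dimmer probes gave 0.42 and 0.29 for Th2 minus Th0. Slc25a30 was affected by the same array. Its difference of 0.53 between hybrid and Th0 cells (adjusted p = 0.00171) was 0.34 without both arrays and 0.35 without Th0 replicate 2, where it missed the threshold (adjusted p = 0.0715).

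Slc25a24, Slc25a25 and Slc25a23, carriers for ATP-Mg and phosphate that respond to calcium and set the adenine nucleotide content of the matrix, differed at late times. Slc25a54, also listed with the adenine nucleotide and phosphate carriers, was not called late (F-test, adjusted p = 0.597). Slc25a41, listed there too, was not expressed. Slc25a24 ran from 7.80 to 8.54 with a median of 8.22 in hybrid cells and from 7.88 to 8.45 with a median of 8.25 in Th2 cells. It ran from 8.12 to 8.95 with a median of 8.72 in Th1 cells, and from 8.21 to 9.004 with a median of 8.66 in Th0 cells. At matched times it was lower in 8 of 8 pairs for hybrid against Th1 (-0.48, adjusted p = 3.49e-06), hybrid against Th0 (-0.43, adjusted p = 1.5e-05) and Th2 against Th0 (-0.39, adjusted p = 5.88e-05), and Th1 exceeded Th2 by 0.44 (adjusted p = 1.06e-05). A dimmer Slc25a24 probe gave -0.60 for Th2 and -0.55 for hybrid minus Th0, but the dimmest gave only -0.02 and -0.10. Slc25a25 was below Th0 in all 3 polarized cultures. Its medians were 8.75 in hybrid, 8.87 in Th2 and 8.84 in Th1 cells, against 9.21 in Th0 cells. The differences were -0.55 (adjusted p = 5.43e-05), -0.50 (adjusted p = 0.000213) and -0.38 (adjusted p = 0.0155). Slc25a23 was called only between Th1 and others, by -0.19 against Th0 (adjusted p = 0.0447), a call lost without Th0 replicate 1 or 2, without Th1 replicate 1, and under 5 further alternatives (adjusted p from 0.053 to 0.462), and it did not reach 1.5-fold. The call of Slc25a25 in Th1 minus Th0 was lost without Th0 replicate 2 (adjusted p = 0.331) and without Th1 replicate 1 (adjusted p = 0.174).

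Slc25a45, low at 24 to 35 h in all cultures, regained less in Th2 cells. At 48 to 120 h it ran from 8.33 to 10.20 with a median of 9.82 in Th2 cells, and from 8.46 to 10.56 with a median of 10.05 in hybrid cells, against 8.86 to 11.12 with a median of 10.54 in Th0 cells. Th2 cells were below Th0 by 1.52-fold (log2 -0.60 ± 0.09, adjusted p = 5.52e-07) in 7 of 8 pairs, hybrid cells by 1.34-fold (adjusted p = 0.000195) in 8 of 8, and Th1 exceeded Th2 cells by 0.45 (adjusted p = 0.000107). Slc25a27, a relative of uncoupling proteins, was below Th0 in hybrid (-0.36, adjusted p = 0.000706) and Th2 cells (-0.33, adjusted p = 0.00145), and below Th1 in hybrid cells (-0.34, adjusted p = 0.00191). This last call was lost without Th1 replicate 2 (adjusted p = 0.206) and without hybrid replicate 2 (adjusted p = 0.0652). The Slc25a27 probe was near background, with late values from 6.22 to 7.40 and a median of 6.71, below the median of all values (6.77). The second probe of this gene, not expressed, gave 0.05 for hybrid and -0.04 for Th2 minus Th0. Slc25a42, a carrier of coenzyme A, was above Th0 by 0.48 in hybrid (adjusted p = 4.04e-05) and 0.30 in Th2 cells (adjusted p = 0.00823). Its dimmer expressed probes did not show this. They gave -0.03, 0.002 and 0.07 for hybrid and -0.04, -0.01 and -0.03 for Th2 minus Th0, so the result rests on the brightest probe.

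Among import genes Timm9 showed the largest late difference. It ran from 11.10 to 12.43 with a median of 11.42 in Th2 cells, against 11.72 to 12.79 with a median of 11.98 in Th0 cells. The ranges overlap, yet Th2 was lower in 8 of 8 matched pairs (1.44-fold, log2 -0.53 ± 0.09, adjusted p = 2.2e-05). In hybrid cells Timm9 was lower by 0.32 on the log2 scale. Timm17a ran from 11.08 to 12.02 with a median of 11.38 in hybrid cells, against 11.64 to 12.51 with a median of 11.92 in Th0 cells, lower in 8 of 8 pairs (1.39-fold, adjusted p = 3.83e-07). It was also lower in Th2 than in Th0 cells (-0.34, adjusted p = 0.00011) and in hybrid than in Th1 cells (-0.28, adjusted p = 0.0024). Tomm7 was lower than in Th0 by -0.29 in hybrid and -0.28 in Th2 cells. In the same late arrays the sum of the 5 myeloid markers was 445 to 2275 in Th2, 434 to 1602 in hybrid and 432 to 492 in Th1 cells, against 448 to 488 in Th0 cells, and the sum of 2 B cell markers was 307 to 747 in Th2, 375 to 580 in hybrid and 259 to 313 in Th1 cells, against 242 to 338 in Th0 cells. The markers of each list did not move together. Over all late arrays Adgre1 averaged 7.46, but Lyz1 6.51, Lyz2 6.29, Itgam 6.45 and Csf1r 6.81, near the median of all values (6.77). Of the B cell markers, Cd79b averaged 7.95 and Ms4a1 6.67. These sums therefore do not establish myeloid or B cells in the late cultures. The part of other cells in the late differences was not tested.

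**Figure D5:**
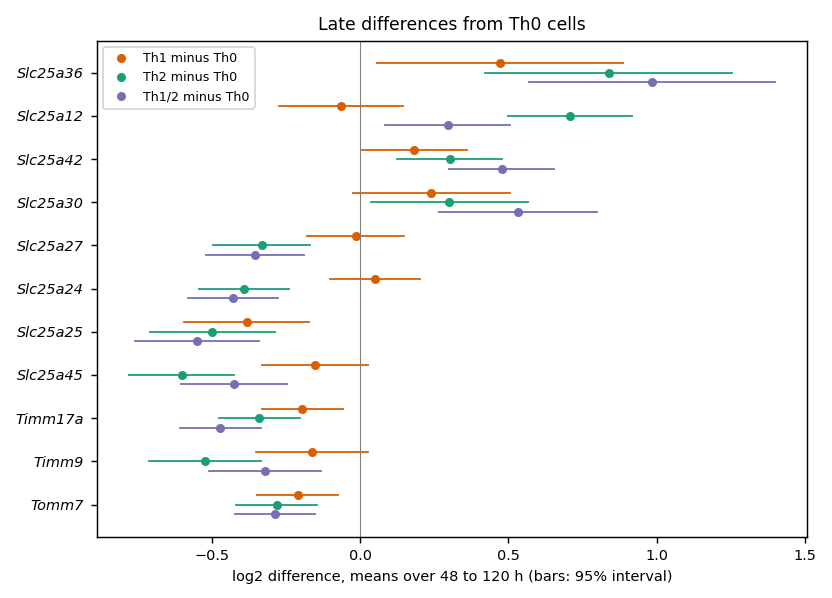
Log2 differences of Th1, Th2 and Th1/2 hybrid cells from Th0 cells in the means over 48 to 120 h, for 8 carriers and 3 import genes. Points are estimates and bars are 95% intervals from the fit. Slc25a36 and Slc25a12 lie to the right of 0 in Th2 cells, and the import genes Timm17a, Timm9 and Tomm7 lie to the left.

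Finally, the change from 24 to 35 h to 48 to 120 h was compared among the cultures by an F-test on the interaction. It called 3 carriers and 1 import gene, against 8.58% of all genes, and 14 members with the block within time points, against 22.2% of all genes. Slc25a45 rose by 0.86 in Th2 and 1.5 in hybrid cells, against 1.6 in Th0 cells (adjusted p = 0.000178). Slc25a16, a carrier linked to coenzyme A, changed by -0.48 in Th2 and -0.43 in hybrid cells, against 0.12 in Th0 cells (adjusted p = 0.0266). Timm17a changed by -1.3 in hybrid and -1.2 in Th2 cells, against -0.78 in Th0 cells (adjusted p = 0.00954). Slc25a25 changed by -0.70 in hybrid, -0.61 in Th2 and -0.55 in Th1 cells, against -0.06 in Th0 cells, and lay at the threshold (adjusted p = 0.0497). Only the call of Slc25a45 held under all alternatives run. That of Slc25a16 was lost without Th0 replicate 2 (adjusted p = 0.31) or Th2 replicate 1 (0.167) and with normexp correction and quantile normalization (0.0583), that of Timm17a without either Th0 replicate (0.0839 and 0.159) or hybrid replicate 1 (0.0515), and that of Slc25a25 under 14 alternatives (up to 0.369).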

How the data were processed

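The authors hybridized amplified RNA to Illumina Mouse Sentrix-6 arrays, with background correction and quantile normalization before a log2 step by their methods, in software not given in the sources used here. Deposited values are normalized intensities on a linear scale, from 55.8 to 69892 with array medians of 107 to 111, so log2 was taken and nothing else was changed. The number of arrays limits the precision. Probes were named from the platform annotation, which gave 1 symbol for 34773. The 18 with several symbols and the 10344 without any were left out. Each gene was read from its brightest probe, and expressed genes exceed the median of all values (6.77) in the mean of a condition. A model with 1 mean per condition over all 74 arrays was fitted with limma 3.58.1 in R 4.3.3, with p adjusted by Benjamini-Hochberg over 13776 genes and a median residual SD of 0.15. Calls need an adjusted p under 0.05, and at least 2-fold for comparisons between times. The methods describe 2 independent experiments, numbered 1 and 2 in the labels. Deviations of arrays of the same time and number correlated with a median of 0.537 (above 0.1 in 52 of 54 pairs), and over all times with 0.108. The main fit has no block, and p-values measure the spread between the arrays of these experiments.

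Members and gene lists were chosen with earlier results of these data known. Genes named with values are the 6 carriers and 6 import genes with the largest called change at 24 to 35 h, members that fell then, up to 3 members per pair of late cultures with the largest called difference of the same sign in both experiments, members called in the interaction test, and the 2 largest of each related list. Others are named by range, group or comparison and were chosen after their values were seen.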

Additional observations from a re-analysis of the deposited data

Results flagged for a closer look

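There were 4 members that changed differently among the cultures between 24 to 35 h and 48 to 120 h, by limma's interaction F-test. The log2 change of Slc25a45 in Th2 cells minus that in Th0 cells was -0.74 ± 0.15 (SE). For Slc25a16 the same difference, Th2 minus Th0, was -0.60 ± 0.16. For Timm17a, hybrid minus Th0 was -0.53 ± 0.12, and for Slc25a25 it was -0.64 ± 0.18. Slc25a25 was not particular to hybrid cells, with -0.55 for Th2 and -0.49 for Th1 minus Th0. Both experiments of a culture enter each value.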

How the results depend on the processing

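Over all alternatives, 431 of 493 values that answer a comparison stayed within 1.5 times the reported count, or for medians within the SD between experiments, and 62 moved. Of 616 values of named genes, 568 kept direction and call, 48 kept direction and missed the threshold, and none reversed. Array weights, the blocks and the 1.5-fold limit leave the estimates as they were, so their direction could not reverse there. The same holds where the replicate left out belongs to a culture outside the comparison. At 1.5-fold in place of 2-fold, 15 carriers were called at 3 to 12 h, 10 higher and 4 lower at 24 to 35 h, 7 at 48 to 120 h and 10 between the later windows. Import genes then had 1 lower at 24 to 35 h, 5 called at 48 to 120 h and 10 between the later windows. Of late pairs, 0 members in Th1 minus Th0, hybrid minus Th1 and hybrid minus Th2, 1 in Th1 minus Th2, 1 in hybrid minus Th0 and 3 in Th2 minus Th0 reached 1.5-fold. With normexp and quantile normalization 2 carriers fell at 24 to 35 h and 2 members were called for the interaction. The mean of all expressed probes gave 2 carriers between the later windows, 4 members in Th1 minus Th0 and an import median of 0.68. The import median was 0.54 with no filter and 0.88 with the stricter filter, which gave a carrier median of 0.0156. In Th1 minus Th0, 1 member was called with no filter, with array weights and without both arrays that stood apart. Array weights gave 2 carriers among cultures at 3 to 12 h.

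With the replicate block, 2 carriers differed among cultures at 3 to 12 h, and also with the replicate block within time points, which gave 8 carriers and 1 import gene at 24 to 35 h, 8 import genes late, 14 members for the interaction, and 7, 17 and 4 in Th1 minus Th0, hybrid minus Th1 and hybrid minus Th2. The block changed no other count by over 1.5 times.

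Leaving out 1 replicate of a culture gave 1 to 2 carriers lower at 24 to 35 h (2 without Tnaiv replicate 2), 1 to 2 among cultures at 3 to 12 h (2 without hybrid replicate 2) and 1 to 3 at 24 to 35 h (1 without either Th2 replicate, Th1 replicate 2 or hybrid replicate 2), and 0 to 1 import genes called at 48 to 120 h (1 without Tnaiv replicate 2). The medians were 0.0153 (without Tnaiv replicate 2) to 0.0798 for carriers and 0.67 to 0.71 for import genes. Late pairs had 0 to 6 members in Th1 minus Th0 (0 without Th0 replicate 2 or Th1 replicate 1, 6 without Th0 replicate 1), 7 to 13 in Th1 minus Th2 (7 without Th2 replicate 1), 10 to 23 in Th2 minus Th0 (10 and 12 without Th2 replicates 1 and 2), 3 to 10 in hybrid minus Th1 (3 to 6 without a replicate of either culture) and 0 to 1 in hybrid minus Th2 (0 without Th2 replicate 2 or hybrid replicate 1). The interaction had 1 to 4 (1 without Th0 replicate 2, 2 without Th0 replicate 1 or Th2 replicate 1). The cause of these shifts was not tested.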
